A study of Mus musculus with 64 samples.

Results

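The genes described here are 7 regulators and markers of spermatogonial differentiation in the mouse: Kit, Sohlh1, Sohlh2, Dmrt1, Dmrtb1, Neurog3 and Ccnd2. They were chosen by name and looked up by gene symbol in the expression tables, where all 7 were found among 26385 listed genes. Their RNA was measured in 47 RNA-seq libraries, each made from the RNA of 1 mouse. Of these, 20 libraries came from sorted germ cells and 27 from whole testis.

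The sorted germ cells came from Morc1 het (Morc1 tg/+) and Morc1 KO (Morc1 tg/tg) mice, before birth at E16.5 and E18.5 (embryonic days) and after birth at P2.5 and P10.5 (postnatal days). There were 2 libraries per genotype at both embryonic ages, 3 tg/+ and 2 tg/tg at P2.5, and 4 tg/+ and 3 tg/tg at P10.5. The tg allele is a tyrosinase transgene inserted into Morc1 on the FVB/N background, and it removes exons near the start of the gene. For the sorts up to P2.5 the line was crossed to reporter mice of mixed background, so those cells are not pure FVB/N. Cells up to P2.5 were sorted for GFP from an Oct4-IRES-Gfp reporter, and cells at P10.5 for low side scatter, high EpCAM and no H2-Kq, so that stage, sort and strain background change together between P2.5 and P10.5. Whole testis at P10.5 came from 1 Morc1 WT, 2 Morc1 het and 3 Morc1 KO mice, plus 1 WT and 1 het mouse labelled preliminary, from 3 DNMT3L WT, 3 DNMT3L het and 3 DNMT3L KO mice, and from 2 Miwi2 het and 2 Miwi2 KO mice. At P14.5 there were 3 Morc1 het and 3 Morc1 KO testes. Whole testis mixes germ cells with Sertoli and other somatic cells, and the sources used here do not name the strain of the DNMT3L and Miwi2 mice.

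Spermatogonia that leave the undifferentiated pool switch on the receptor tyrosine kinase KIT, divide several times and enter meiosis. SOHLH1 and SOHLH2 are basic helix-loop-helix proteins of germ cells that drive this step, and both are known to act on Kit. DMRT1 and DMRTB1 (also called DMRT6) carry the DM DNA-binding domain. DMRT1 holds back meiosis in spermatogonia and is also made in Sertoli cells, while DMRTB1 helps differentiating spermatogonia to pass into meiosis. NEUROG3 is a helix-loop-helix factor of undifferentiated spermatogonia that are about to differentiate. CCND2, a D-type cyclin, moves cells from G1 towards DNA replication.

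On mouse build mm9, the gene models used in the tables placed Kit at chr5:75970941-76052747 on the plus strand, Sohlh2 at chr3:54985950-55013879 on the plus strand and Dmrt1 at chr19:25580108-25678819 on the plus strand. Sohlh1 lay at chr2:25698515-25702768 on the minus strand, Dmrtb1 at chr4:107348895-107356835 on the minus strand and Ccnd2 at chr6:127075797-127101066 on the minus strand. Neurog3, at chr10:61595838-61597511 on the plus strand, was the 1 member whose span overlapped another gene model, 2010107G23Rik on the minus strand. The methods give HTSeq at its default settings, which count by strand, but the kit used for whole testis does not mark the strand, so reads of these 2 genes may not be told apart there.

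Promoter sequence was at hand for 5 of the 7 members, from RefSeq on build GRCm38.p6. The 3 windows below, each the 250 bases before the start site, are shown because SOHLH proteins and their relatives bind E-boxes and are known to act on Kit. Capitals mark the E-box CACGTG, which reads the same on both strands.
Sohlh1 (chr2:25847249-25847498, minus strand): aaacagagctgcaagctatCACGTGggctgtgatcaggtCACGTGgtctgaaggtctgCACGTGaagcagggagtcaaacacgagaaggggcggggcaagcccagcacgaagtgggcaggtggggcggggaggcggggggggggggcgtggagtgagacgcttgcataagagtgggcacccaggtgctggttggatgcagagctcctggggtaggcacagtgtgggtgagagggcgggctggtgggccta
Sohlh2 (chr3:55181794-55182043, plus strand): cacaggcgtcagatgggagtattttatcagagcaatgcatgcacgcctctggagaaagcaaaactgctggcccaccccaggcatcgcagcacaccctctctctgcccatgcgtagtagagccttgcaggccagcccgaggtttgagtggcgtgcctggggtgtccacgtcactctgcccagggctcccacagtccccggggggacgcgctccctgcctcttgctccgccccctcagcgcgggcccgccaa
Kit (chr5:75574737-75574986, plus strand): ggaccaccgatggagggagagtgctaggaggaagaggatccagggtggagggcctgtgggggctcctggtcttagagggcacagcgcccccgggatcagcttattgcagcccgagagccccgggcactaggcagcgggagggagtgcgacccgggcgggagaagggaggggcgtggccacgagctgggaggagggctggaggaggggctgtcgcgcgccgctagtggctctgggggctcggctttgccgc

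The Sohlh1 window held 3 copies of CACGTG, with first bases at -231, -211 and -192 from the start site. Of 32851 promoter windows of the same length, 6.02% held CACGTG at least once and 0.0609% held 3 or more copies. The Sohlh2 and Kit windows held none, and neither did those of Neurog3 and Dmrtb1. The looser E-box CANNTG, which includes CACGTG, occurred 5 times before Sohlh1, 1 time before Sohlh2, 1 time before Neurog3, 3 and 2 times in the windows of the 2 Dmrtb1 start sites and not at all before Kit, against at least 1 copy in 66.2% of all windows. The letters ACANTGT, searched on both strands as a core of the sites bound by DM domain proteins, occurred 1 time before Sohlh1 and in 6.47% of all windows. These matches describe letters and show no binding.

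The 3 windows were richer in G and C than most, with 64.4% for Sohlh1, 64.8% for Sohlh2 and 70.8% for Kit against a median of 52.4% over all windows. Their ratio of observed to expected CpG was 0.513, 0.542 and 0.601 in the same order, against a median of 0.373. All 3 ratios lay below the upper quartile of 0.723.

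Libraries held 2413679 to 14918478 reads on genes in sorted cells and 22509570 to 42137954 in whole testis. Levels are given as RPKM, the reads of a gene divided by its exon length and scaled to the mapped reads of the library, as the deposited tables list them. Morc1 was lower in tg/tg than in control libraries in every stage and tissue, and Dnmt3l averaged 0.0412 RPKM in DNMT3L KO testis against 0.849 in DNMT3L WT. Piwil4, the gene for MIWI2, went against its label, at 11.2 RPKM in the libraries labelled Miwi2 KO and 6.83 in Miwi2 het. Summed RPKM of 11 Sertoli cell markers lay between 30.2 and 131 in sorted libraries and between 2068 and 5375 in testis libraries. A gene was called when its adjusted p (Benjamini-Hochberg over all genes tested, edgeR quasi-likelihood test) was under 0.05. Where groups are said to lie apart or not to overlap, this only describes the values. The share of all genes that did the same was not counted, so it adds no support to a call.

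The course of the 7 genes in control germ cells was read first. From E16.5 to P10.5 the members did not move as a block. Dmrt1 climbed at each step, Ccnd2 peaked at P2.5, Sohlh2 rose from a low level between E18.5 and P2.5, Dmrtb1 was high at P10.5, and Sohlh1 was highest at E16.5. The control libraries at all 4 stages were Morc1 tg/+, and the stage tests were fitted on these 11 libraries together. Where 1 of the 2 libraries of an embryonic stage was left out, the lone library was assumed to vary like the other stages.

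Dmrt1 stood at 15.4 and 19.2 RPKM in the 2 E16.5 tg/+ libraries and at 107 and 46.5 in the E18.5 pair. It reached 118, 130 and 136 at P2.5 and 148 to 164 in the 4 libraries at P10.5. Stages E16.5, P2.5 and P10.5 did not overlap, and the 2 E18.5 libraries stood far apart. The log2 fold change was 2.13 ± 0.213 (SE) from E16.5 to E18.5 (adjusted p = 7.45e-06), 0.59 ± 0.188 from E18.5 to P2.5 (adjusted p = 0.0206) and 0.56 ± 0.155 from P2.5 to P10.5 (adjusted p = 0.0139). The second step rested on the spread at E18.5, since without E18.5 replicate 2 it was 0.19 (adjusted p = 0.233), without E18.5 replicate 1 it was 1.16 (adjusted p = 4.93e-06) and without P2.5 replicate 2 it was 0.56 (adjusted p = 0.0558). The third step was 0.51 (adjusted p = 0.053) without P2.5 replicate 1.

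Ccnd2 rose from 3.30 and 4.22 RPKM at E16.5 to 18.46 and 12.4 at E18.5, and to 69.1, 79.9 and 77.3 at P2.5. At P10.5 it was back at 17.9 to 19.4 in the 4 libraries. All P2.5 values lay above those of every other stage. Both rises, of 2.04 ± 0.141 (adjusted p = 6.76e-07) and 2.13 ± 0.131 (adjusted p = 2.25e-08) on the log2 scale, and the fall of -1.72 ± 0.1 (adjusted p = 2.42e-08) passed the test.

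The partners Sohlh1 and Sohlh2 had different courses. Sohlh2 was at 1.67 and 1.57 RPKM at E16.5, at 2.37 and 0.0550 in the E18.5 pair, at 18.8, 16.7 and 24.0 at P2.5 and at 12.8 to 13.2 at P10.5. Its step from E18.5 to P2.5 was 3.94 ± 0.547 (adjusted p = 4.66e-05), or 8.10 without E18.5 replicate 1, and no earlier library reached the P2.5 or P10.5 range. The second E18.5 value rested on 1 read, and so do the 8.10 and the step from E16.5 to E18.5 without replicate 1, at -4.67, against -0.51 (adjusted p = 0.619) with both libraries. Sohlh1 was at 34.6 and 46.4 RPKM at E16.5, at 25.0 and 18.2 at E18.5, at 31.2, 22.8 and 27.3 at P2.5 and at 14.49 to 17.8 at P10.5. Its fall from E16.5 to E18.5 was -0.89 ± 0.211 (adjusted p = 0.007) and that from P2.5 to P10.5 was -0.47 ± 0.161 (adjusted p = 0.041). Both falls of Sohlh1 were fragile: the first was lost without E16.5 replicate 2 (-0.78, adjusted p = 0.0975), and the second, at -0.57 to -0.34, was lost in 8 of the 11 fits that left out 1 library (either E16.5 library, P2.5 replicate 1 or 3, or any P10.5 library). The second was also lost without the filter on low counts (adjusted p = 0.0669).

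Dmrtb1 was low before birth and high at P10.5. It measured 0.698 and 1.54 RPKM at E16.5, 11.1 and 2.16 in the E18.5 pair, 4.43, 5.13 and 5.00 at P2.5 and 41.3 to 59.0 at P10.5. The step from P2.5 to P10.5, 3.68 ± 0.345 on the log2 scale (adjusted p = 2.11e-06), separated all 4 older from all 3 younger libraries. The first step, 2.51 ± 0.471 (adjusted p = 0.00132), was 1.07 (adjusted p = 0.0623) without E18.5 replicate 1. The middle step was not called, but was -1.26 (adjusted p = 0.00257) without E18.5 replicate 2.

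Kit was present at every stage, at 16.51 and 12.6 RPKM at E16.5, 13.8 and 6.60 in the E18.5 pair, 8.73, 14.8 and 14.7 at P2.5 and 20.8 to 24.8 at P10.5. The P10.5 libraries lay above all earlier ones. The rise from P2.5 to P10.5 was 1.13 ± 0.201 (adjusted p = 0.000582), and neither earlier step was called, though the first was -1.03 (adjusted p = 0.0116) without E18.5 replicate 1.

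Neurog3 was the rarest member. No read was seen in the 3 P2.5 control libraries, which held 15469012 reads on genes, against 129 reads in the 4 P10.5 libraries (0.965 to 1.72 RPKM). With the P2.5 group set at a floor of 3 reads, the pooled share of Neurog3 reads was 19.8-fold higher at P10.5. That ratio was not itself tested. The test on the counts without a floor called the rise (7.83 ± 2.17 on the log2 scale, adjusted p = 0.016). At E18.5 all 27 reads were in replicate 2 and none in replicate 1. The call from E18.5 to P2.5 (adjusted p = 0.0164) rested on that library, since without it both groups were at 0 reads. The step from E16.5 to E18.5 was not called (adjusted p = 0.131), but was 5.28 (adjusted p = 0.0151) without E18.5 replicate 1.

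**Figure D1:**
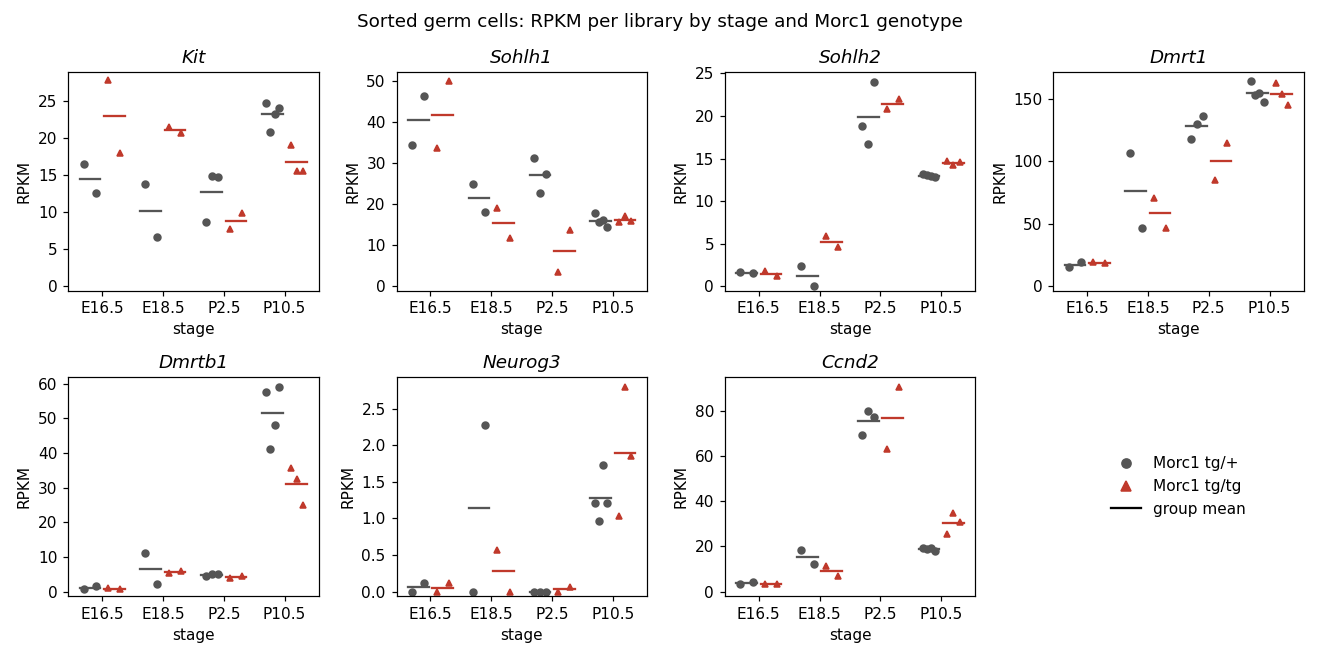
RPKM (y axis, from 0, one panel per gene) of the 7 genes in each sorted germ cell library at 4 stages (x axis), with grey circles for Morc1 tg/+, red triangles for Morc1 tg/tg and short lines for group means. Dmrt1 climbs to 148 to 164 RPKM at P10.5, Ccnd2 peaks at P2.5, and at P10.5 the red Dmrtb1 and Kit points lie below and the red Ccnd2 points above the grey ones.

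In these stage comparisons 4 of 7 members were called from E16.5 to E18.5, 4 from E18.5 to P2.5 and 6 from P2.5 to P10.5, where 18.7%, 39.1% and 27.6% of all genes tested were called. Of 15 markers of undifferentiated spermatogonia 8 were called higher and 4 lower at the first step, while their summed level went from 237 to 269.6 RPKM down to 136 to 157, and 10 were called higher and 1 lower at the second, to a sum of 399.9 to 454. Of 12 germ cell markers 8 were called lower and 1 higher at the first step, with sums of 1135 to 1483 and 876 to 961 RPKM, and 4 lower and 2 higher at the second. Summed early meiotic genes were 252 to 286 RPKM at E16.5, 264 to 276 at E18.5, 343 to 449 at P2.5 and 336 to 372 at P10.5. Blood markers summed to 24.7 to 31.7 RPKM at E18.5 and 0.0 to 1.89 at P2.5. From P2.5 to P10.5, where the sort also changed, 5 of 11 Sertoli markers were called higher and none lower, with summed levels of 36.2 to 39.0 and 78.8 to 131 RPKM, and 11 of the 15 undifferentiated markers were called lower and none higher, to a sum of 160.4 to 178 RPKM. The part of these shifts in the members' values was not tested. Stra8, the retinoic acid target of spermatogonia about to enter meiosis, rose at the last 2 steps, by 2.08 ± 0.438 (adjusted p = 0.00162) and 1.46 ± 0.317 (adjusted p = 0.00283). Kitl, the gene for KIT ligand made by Sertoli cells, stayed between 0.622 and 2.80 RPKM in all sorted libraries.

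Loss of Morc1 was first asked about in the germ cells themselves. Before and just after birth no member was called, and at P10.5 the 3 that moved were Kit and Dmrtb1, which fell, and Ccnd2, which rose. Sohlh1, Sohlh2 and Dmrt1 had intervals that held 0 at P10.5.

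At E16.5, E18.5 and P2.5, 0 of the 6 members tested were called by edgeR, with 0.421%, 0.0416% and 0.0486% of all genes called. Unadjusted p was under 0.05 for 1, 2 and 3 of the 6 members in turn, and DESeq2 called 0, 1 (Kit) and 0. The share of all genes at that unadjusted p is not given here. At E18.5 DESeq2 also called more of all genes than edgeR, as given in the closing section. These counts therefore add no support for a change of the members. Neurog3 had too few reads to be tested. Of the cell markers only 1 blood gene, at E16.5, was called (higher). Summed markers of undifferentiated spermatogonia were higher in tg/tg at E16.5 (281 to 301 against 237 to 269.6 RPKM). They were lower at E18.5 (69.6 to 128 against 136 to 157) and P2.5 (358.5 to 375 against 399.9 to 454). Sertoli sums overlapped at E16.5 and E18.5 and were higher at P2.5 (51.9 to 54.6 against 36.2 to 39.0). Their part in the members' values was not tested. At E18.5 Morc1 itself, at -2.32 ± 0.413, was not called (adjusted p = 0.139), while it was called at E16.5 (adjusted p = 1.94e-09) and P2.5 (adjusted p = 0.0257).

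Kit was higher in the embryonic mutants but did not pass the test. It measured 27.9 and 18.1 RPKM in tg/tg against 16.51 and 12.6 in tg/+ at E16.5, and 21.5 and 20.7 against 13.8 and 6.60 at E18.5. Both tg/tg libraries lay above both tg/+ libraries at each stage. The log2 fold changes were 0.56 ± 0.166 (adjusted p = 0.191) and 1.20 ± 0.293 (adjusted p = 0.455). The first was called without the filter on low counts (0.56, adjusted p = 0.00044) and with replicate numbers fitted as a block (0.55, adjusted p = 0.000823). The second was called by DESeq2 (1.21, adjusted p = 0.00129) and without the filter (1.20, adjusted p = 0.0013). Calls over all genes rose in these fits as well. With 1 library left out, the first was 0.90 without tg/+ replicate 1 and 0.83 without tg/tg replicate 2. The second was 1.68 without tg/+ replicate 1. In such fits of 2 against 2 libraries with 1 left out, the lone library is assumed to vary like the other group.

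Ccnd2 at E18.5 measured 11.3 and 7.02 RPKM in tg/tg against 18.46 and 12.4 in tg/+, without overlap and lower in the mutants. Its log2 fold change of -0.65 ± 0.262 was not called (adjusted p = 0.778). Sohlh2 at E18.5 measured 5.87 and 4.59 RPKM in tg/tg against 2.37 and 0.0550 in tg/+, without overlap. Its log2 fold change of 2.32 ± 1.15 was not called (adjusted p = 0.817), but was 6.35 (adjusted p = 0.0163) without tg/+ replicate 1, which left the control library with 1 read of Sohlh2.

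At P2.5 Kit (-0.56 ± 0.259, adjusted p = 0.968) and Dmrt1 (-0.39 ± 0.158, adjusted p = 0.968) were lower in tg/tg but not called. The Dmrt1 and Dmrtb1 values of the genotypes did not overlap. Sohlh1 at this stage measured 3.51 and 13.8 RPKM in tg/tg against 31.2, 22.8 and 27.3 in tg/+. The groups did not overlap, the 2 mutant libraries differed widely, and the lower of them rested on 19 reads. The log2 fold change of -1.64 ± 0.452 was not called (adjusted p = 0.966). It was called without the filter on low counts (-1.64, adjusted p = 0.0127) and with replicate numbers fitted as a block (-1.87, adjusted p = 0.0224). Calls over all genes rose in both fits as well. Without tg/tg replicate 2 it was -2.91, in a fit with 1 mutant library that is assumed to vary like the controls.

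At P10.5, 3 of 7 members were called, 2 lower and 1 higher, where 12.2% of all genes tested were called (5.79% lower and 6.43% higher). Kit measured 24.8, 20.8, 23.3 and 24.0 RPKM in tg/+ and 19.1, 15.6 and 15.5 in tg/tg. Every mutant library was below every control library, and the log2 fold change was -0.55 ± 0.0881 (adjusted p = 0.000128).

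Dmrtb1 measured 57.6, 41.3, 48.0 and 59.0 RPKM in tg/+ and 35.6, 32.4 and 24.9 in tg/tg. Again the groups did not overlap, and the mean in mutants was 60.1% of that in controls. The log2 fold change was -0.81 ± 0.112 (adjusted p = 1.62e-05).

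Ccnd2 went the other way, at 19.4, 18.7, 19.4 and 17.9 RPKM in tg/+ and 25.5, 34.7 and 30.7 in tg/tg. The 2 groups were apart, with a log2 fold change of 0.60 ± 0.0824 (adjusted p = 1.43e-05). All 3 calls held in each of the 7 fits that left out 1 library.

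For the other members at P10.5 the intervals (the estimate plus and minus a normal multiple of its standard error) ran from -0.30 to 0.18 for Sohlh1, from -0.13 to 0.28 for Sohlh2, from -0.22 to 0.04 for Dmrt1 and from -0.24 to 1.20 for Neurog3. The Sohlh2 RPKM values of the 2 groups did not overlap, at 12.8 to 13.2 in tg/+ and 14.2 to 14.7 in tg/tg, but after normalization its log2 fold change was 0.08 ± 0.104 (adjusted p = 0.691). Neurog3 ranged from 0.965 to 1.72 RPKM in tg/+ and from 1.03 to 2.79 in tg/tg.

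The effect of Morc1 loss at P10.5 was set against that at E16.5 by an interaction term over the 11 germ cell libraries of these 2 stages. It differed for 2 of 7 members, where 1.71% of all genes tested differed. Stage, sort and strain background change together between E16.5 and P10.5, so they cannot be told apart here. Kit had a difference of -1.11 ± 0.205 (adjusted p = 0.00302), between a value of 0.56 that was not called at E16.5 and the fall at P10.5. For Ccnd2 the difference was 0.83 ± 0.157 (adjusted p = 0.0038). Both calls were lost without E16.5 tg/tg replicate 1, at -0.77 (adjusted p = 0.109) for Kit and 0.76 (adjusted p = 0.0659) for Ccnd2, a fit with 1 library in that group.

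Other cell markers moved in the same P10.5 germ cells. Of 15 markers of undifferentiated spermatogonia 8 were called higher and none lower, with summed levels of 160 to 178 RPKM in tg/+ and 221 to 262 in tg/tg. Of 14 early meiotic genes 8 were called lower and none higher (336 to 372 against 295 to 311 RPKM). Of 11 Sertoli markers 4 were called lower and none higher (78.8 to 131 against 52.1 to 105 RPKM), and 2 of 11 germ cell markers were called higher. The part of these shifts in the values of Kit, Dmrtb1 and Ccnd2 was not tested.

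In the wider list of differentiation genes 1 of 13 was called higher and 3 lower. This list also holds genes of undifferentiated cells and Kitl, so its counts give no direction of differentiation. It shares Kitl with the KIT signalling list, Ccnd1, Ccnd3 and Cdk4 with the cyclin D partners and Nanos3 with the undifferentiated markers. Counts of these lists are therefore not independent. Stra8 fell by 1.08 on the log2 scale (SE 0.0979, adjusted p = 1.4e-08), from a mean of 44.2 to 22.2 RPKM. Rarg, a retinoic acid receptor, fell by 0.42 (SE 0.136, adjusted p = 0.0403), and Lin28a, an RNA-binding protein of undifferentiated cells, rose by 0.40 ± 0.115 (adjusted p = 0.0217). Of 33 KIT signalling genes 5 were called higher and 1 lower, where 6.43% and 5.79% of all genes tested were. Pik3cd, a catalytic subunit of PI3 kinase, had 0.64 ± 0.12 (adjusted p = 0.000662), and Stat3 had 0.38 ± 0.0909 (adjusted p = 0.00662). The 1 that fell was Rps6kb1, a kinase below mTOR, at -0.32 ± 0.102 (adjusted p = 0.0401).

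Of 14 partners of the D-type cyclins 6 were called lower and none higher, with summed levels that overlapped (153 to 172 RPKM in tg/+ and 139.9 to 158 in tg/tg). Cdkn2c, an inhibitor of the cyclin D kinases, had -1.14 ± 0.344 (adjusted p = 0.028), and Cdk6, one of those kinases, had -0.79 ± 0.228 (adjusted p = 0.0219). The median log2 fold change was -0.32 over these genes, -0.06 over the 7 members and 0.00 over all genes tested.

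Whole testis at P10.5 asks the same question with deeper libraries but in mixed tissue. Here 5 of 7 members were lower in Morc1 tg/tg and none was higher, where 15.3% of all genes tested were called (9.26% lower and 6.08% higher). These are 2326 genes, and 922 were called without tg/tg replicate 3, 1247 without tg/+ replicate 3 and 1533 without tg/tg replicate 2. In such bulk samples fewer cells of a type and less RNA per cell cannot be told apart. The 3 tg/tg testes were compared with the 1 WT and 2 tg/+ testes that were not labelled preliminary.

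Dmrtb1 moved most, from 20.7 RPKM in WT and 21.0 and 20.1 in tg/+ to 9.26, 7.34 and 7.69 in tg/tg. The 3 mutants lay far below the 3 controls, at 39.3% of their mean. Its log2 fold change was -1.34 ± 0.0827 (adjusted p = 6.27e-06).

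Sohlh2 measured 14.0 RPKM in WT, 15.0 and 14.1 in tg/+ and 9.92, 8.90 and 8.38 in tg/tg. Kit measured 16.3 in WT, 19.7 and 16.3 in tg/+ and 13.9, 11.5 and 11.5 in tg/tg. Sohlh1 measured 36.8 in WT, 31.6 and 39.6 in tg/+ and 26.3, 28.0 and 24.7 in tg/tg. In all 3 genes every mutant was below every control. Their log2 fold changes were -0.65 ± 0.0727 (adjusted p = 0.000285), -0.50 ± 0.0921 (adjusted p = 0.00523) and -0.44 ± 0.0796 (adjusted p = 0.00473).

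Dmrt1 measured 121 RPKM in WT, 121 and 127 in tg/+ and 107, 108 and 97.3 in tg/tg. The groups were apart by a narrow margin, and the log2 fold change of -0.23 ± 0.0521 (adjusted p = 0.0145) was lost without tg/+ replicate 3 (-0.21, adjusted p = 0.0738) or tg/tg replicate 3 (-0.19, adjusted p = 0.0824). Ccnd2, at 0.11 ± 0.0506 (adjusted p = 0.164), and Neurog3, at -0.14 ± 0.213 (adjusted p = 0.695), were not called. The Ccnd2 values of these groups were apart by a narrow margin, at 42.27 to 45.4 RPKM in tg/tg and 39.5 to 42.18 in controls. The preliminary testes, left out of this comparison, were at 46.39 (WT) and 41.3 (het).

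Markers of cell types shifted in the same testes. All 14 early meiotic genes and 9 of 12 germ cell markers were called lower, with summed germ cell markers at 407 to 419 RPKM in controls and 262 to 299 in tg/tg. Of 11 Sertoli markers 5 were called higher and none lower (3576 to 3835 against 4022 to 4491 RPKM), and of 15 markers of undifferentiated spermatogonia 1 was called higher and 1 lower. Leydig cell markers were called higher in 3 of 9 cases and lower in none (308.5 to 332 against 355 to 446 RPKM). Macrophage markers were called higher in 3 of 7 cases and lower in none. The median log2 fold change was -0.44 over the members, -0.42 over the germ cell markers, 0.09 over the undifferentiated markers and 0.01 over all genes. Their part in the members' values was not tested.

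Of 13 wider differentiation genes 5 were called lower and 1 higher. Stra8 had -1.46 ± 0.103 (adjusted p = 1.38e-05) and Ccnd1, another D-type cyclin, -0.75 ± 0.0785 (adjusted p = 0.000202). The 1 called higher was Kitl, at 0.26 ± 0.0603 (adjusted p = 0.0176). Of 34 KIT signalling genes 5 were called higher and 2 lower, where 6.08% and 9.26% of all genes tested were. Pik3r1, a regulatory subunit of PI3 kinase, had 0.27 ± 0.0752 (adjusted p = 0.0356). Of 14 cyclin D partners 6 were called lower and none higher, and Ccne2, a cyclin of DNA replication, had -1.11 ± 0.103 (adjusted p = 9.55e-05).

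Control genotypes were compared with each other as well. Between Morc1 het and WT at P10.5, preliminary libraries included, 0 of 7 members were called by edgeR, none had an unadjusted p under 0.05 and DESeq2 called 0, with 0.0131% of all genes called. The widest interval, for Neurog3, ran from -0.40 to 0.36. The same counts of 0 held between DNMT3L het and WT (0.00651% of all genes called), where the widest interval, again for Neurog3, ran from -0.67 to 0.08.

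At P14.5, 2 of 7 members were called in Morc1 tg/tg testis, Sohlh2 and Dmrtb1, both lower, where 34.8% of all genes tested were called (20.1% lower and 14.8% higher). Sohlh2 measured 22.7, 22.5 and 23.8 RPKM in tg/+ and 15.3, 12.94 and 12.99 in tg/tg. Dmrtb1 measured 26.8, 29.1 and 26.7 in tg/+ and 18.3, 17.2 and 16.8 in tg/tg. Neither gene's groups overlapped, and the log2 fold changes were -0.74 ± 0.0745 (adjusted p = 0.000236) and -0.65 ± 0.0611 (adjusted p = 0.000173).

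Kit varied widely at P14.5, at 21.8, 19.6 and 14.9 RPKM in tg/+ and 22.7, 12.8 and 17.9 in tg/tg, so that the groups overlapped (-0.07 ± 0.188, adjusted p = 0.809). Sohlh1 (0.05 ± 0.0716) and Dmrt1 (0.17 ± 0.0743) also overlapped. Neurog3 measured 1.74 to 1.964 RPKM in tg/+ and 2.20 to 2.79 in tg/tg, without overlap, and its log2 fold change of 0.41 ± 0.153 just missed the threshold (adjusted p = 0.0652), as did that of Ccnd2 (0.23 ± 0.0831, adjusted p = 0.0591). Without tg/+ replicate 2, Ccnd2 (0.29, adjusted p = 0.0336) and Dmrt1 (0.24, adjusted p = 0.0319) were called higher, and Ccnd2 also without tg/tg replicate 2 (0.31, adjusted p = 0.016) and by DESeq2 (0.25, adjusted p = 0.0291).

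An interaction term compared the Morc1 effect at the 2 ages, and differed for 3 of 7 members and 8.22% of all genes tested. The log2 fold change at P14.5 minus that at P10.5 was 0.67 ± 0.105 for Dmrtb1 (adjusted p = 0.00131), 0.48 ± 0.114 for Sohlh1 (adjusted p = 0.0174) and 0.39 ± 0.0952 for Dmrt1 (adjusted p = 0.0202). At P14.5 itself Dmrtb1 was still lower in tg/tg (-0.65), while Sohlh1 (0.05) and Dmrt1 (0.17) were not called. Without P10.5 tg/tg replicate 3 the difference was 0.44 (adjusted p = 0.0563) for Sohlh1 and 0.35 (adjusted p = 0.0631) for Dmrt1. For Sohlh2 the difference was -0.09 ± 0.104 (adjusted p = 0.636), and for Kit it was 0.42 ± 0.232 (adjusted p = 0.305). For Neurog3 it was 0.54 ± 0.28 (adjusted p = 0.27), and 0.86 (adjusted p = 0.0441) without P10.5 tg/tg replicate 1.

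In control testis Sohlh2 rose by 0.64 ± 0.0707 (adjusted p = 0.000119) and Dmrtb1 by 0.40 ± 0.0718 (adjusted p = 0.00155) from P10.5 to P14.5, while Ccnd2 had -1.13 ± 0.0734 (adjusted p = 1.13e-05) and Dmrt1 -0.41 ± 0.0777 (adjusted p = 0.0022). That is 4 of 7 members, where 51.4% of all genes were called. Over these days 8 of 11 Sertoli markers were called lower and 2 higher, with overlapping sums of 3576 to 3835 and 3351 to 3700 RPKM, 7 of 15 undifferentiated markers lower and 3 higher, and 11 of 12 germ cell markers higher and none lower, with sums of 407 to 419 and 999 to 1283. Early meiotic genes were called higher in 14 of 14 cases, with summed levels of 180.5 to 180.7 RPKM in P10.5 tg/+ and 597 to 800 in P14.5 tg/+. In P14.5 tg/tg the same sum was lower, at 212 to 249 RPKM. Sertoli markers in P14.5 tg/tg were called higher in 10 of 11 cases and germ cell markers lower in 11 of 12. The part of these shifts in the members' values was not tested.

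Of 13 wider differentiation genes at P14.5, 4 were called higher and 2 lower in tg/tg. Stra8 had -0.64 ± 0.115 (adjusted p = 0.00342), and Kitl was higher by 0.44 ± 0.124 (adjusted p = 0.0244). Of 34 KIT signalling genes 11 were called higher and 4 lower, where 14.8% and 20.1% of all genes tested were. Among them Stat5b had 0.47 ± 0.11 (adjusted p = 0.0109) and Mtor -0.45 ± 0.0682 (adjusted p = 0.00141). Of 14 cyclin D partners 8 were called lower and 2 higher, with Rbl1, a relative of the retinoblastoma protein, at -0.91 ± 0.108 (adjusted p = 0.000461).

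Testis without Dnmt3l, the cofactor of the de novo DNA methyltransferases, was compared with 6 control testes at P10.5. All 7 members were called, 6 lower and 1 higher, in a comparison where 53.9% of all genes tested were called (29% lower and 24.9% higher). The 1 that rose was Ccnd2.

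Neurog3 measured 2.84 to 4.89 RPKM in the 6 controls (median 3.92) and 0.236, 0.378 and 0.614 in KO, or 10.6% of the control mean. Dmrtb1 measured 26.9 to 40.5 in controls (median 30.7) and 3.38, 3.78 and 5.82 in KO, or 13.3% of it. For both genes the KO testes lay far below the lowest control. Their log2 fold changes were -3.17 ± 0.276 (adjusted p = 2.81e-06) and -2.86 ± 0.187 (adjusted p = 3.83e-07).

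Kit measured 22.8 to 31.8 RPKM in controls (median 25.1) and 7.19, 5.23 and 9.04 in KO. Sohlh1 measured 55.5 to 69.0 (median 61.0) and 17.6, 17.1 and 20.0. Sohlh2 measured 21.5 to 24.3 (median 23.6) and 7.34, 7.03 and 8.20. The receptor and both Sohlh factors were thus at 26.8%, 29.9% and 32.3% of their control means. The log2 fold changes were -1.85 ± 0.165 (adjusted p = 3.48e-06), -1.69 ± 0.0881 (adjusted p = 1.28e-07) and -1.59 ± 0.0708 (adjusted p = 6.41e-08).

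Dmrt1 fell least, from 147 to 169 RPKM in controls (median 158) to 115, 108 and 112 in KO (-0.45 ± 0.0634, adjusted p = 0.000102). Ccnd2 rose from 42.6 to 53.2 RPKM (median 49.6) to 70.6, 96.4 and 67.4 (0.72 ± 0.103, adjusted p = 0.000115). Neither gene's groups overlapped. All 7 calls held when any 1 of the 9 libraries was left out.

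**Figure D2:**
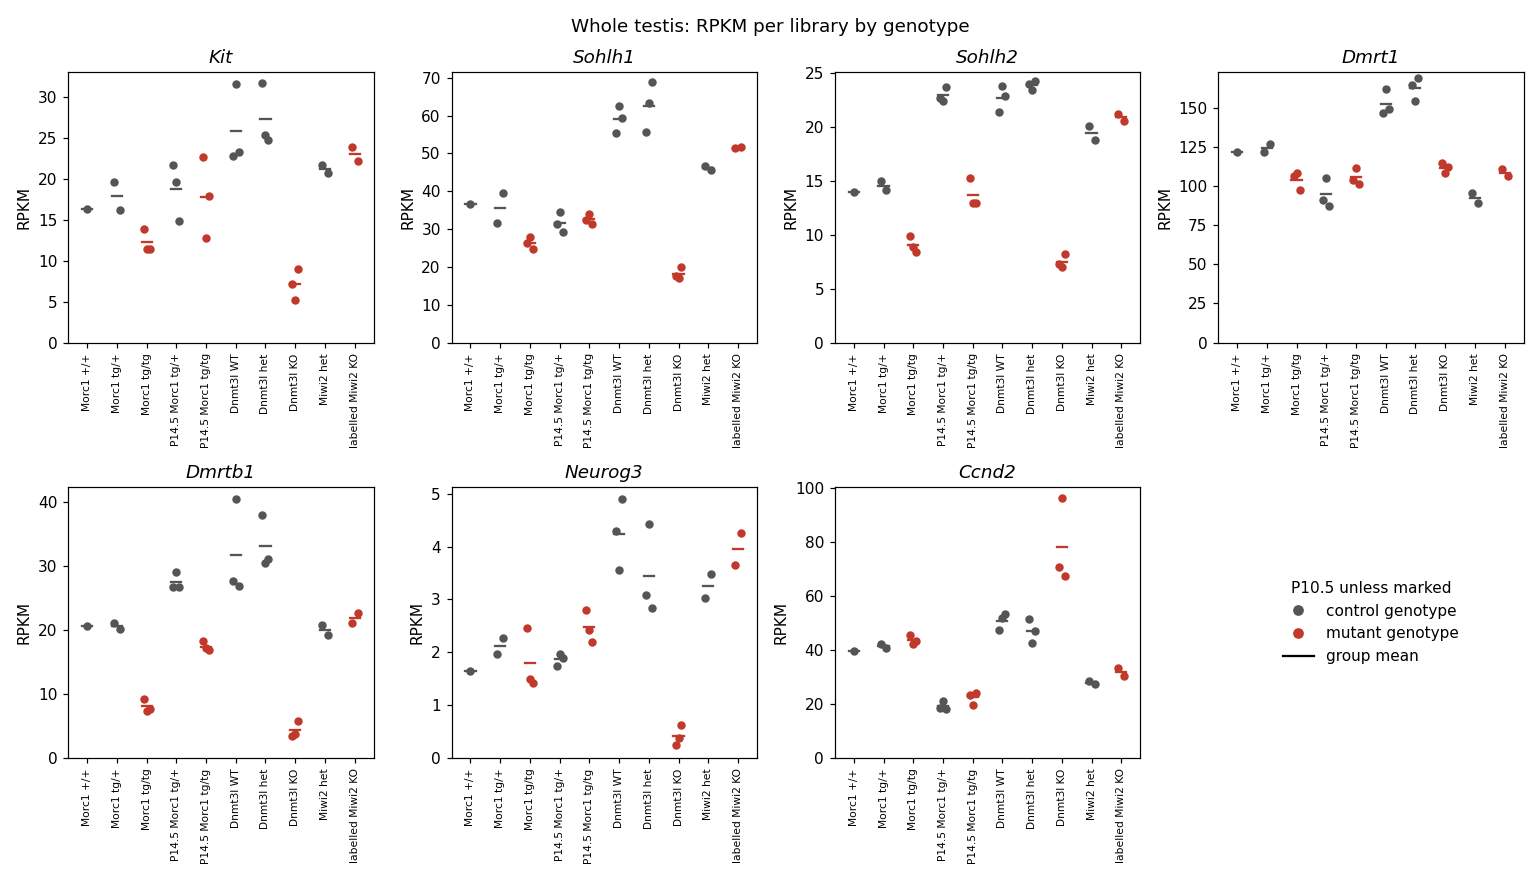
RPKM (y axis, from 0, one panel per gene) of the 7 genes in each whole testis library by genotype (x axis), grey for control and red for mutant genotypes, short lines for group means, P10.5 unless P14.5 is marked, and preliminary libraries left out. DNMT3L KO points lie below their controls for 6 genes and above them for Ccnd2, and Dmrtb1 is at 7.34 to 9.26 RPKM in Morc1 tg/tg against 20.1 to 21.0 in its P10.5 controls.

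The effects in the 2 mutants were set against each other by an interaction term over the P10.5 testis libraries of both lines, each with its own controls, and differed for 6 of 7 members and 17.6% of all genes tested. The change was more negative in DNMT3L KO than in Morc1 tg/tg for Neurog3 (-2.98 ± 0.379, adjusted p = 7.46e-05), Dmrtb1 (-1.47 ± 0.23, adjusted p = 0.000419), Kit (-1.31 ± 0.219, adjusted p = 0.000747), Sohlh1 (-1.21 ± 0.127, adjusted p = 1.33e-05) and Sohlh2 (-0.89 ± 0.1, adjusted p = 2.36e-05). For Ccnd2 it was more positive (0.66 ± 0.142, adjusted p = 0.00485). Dmrt1 was the 1 member without a call, at -0.17 ± 0.0884 (adjusted p = 0.182). The 6 calls held in every fit that left out 1 library.

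**Figure D3:**
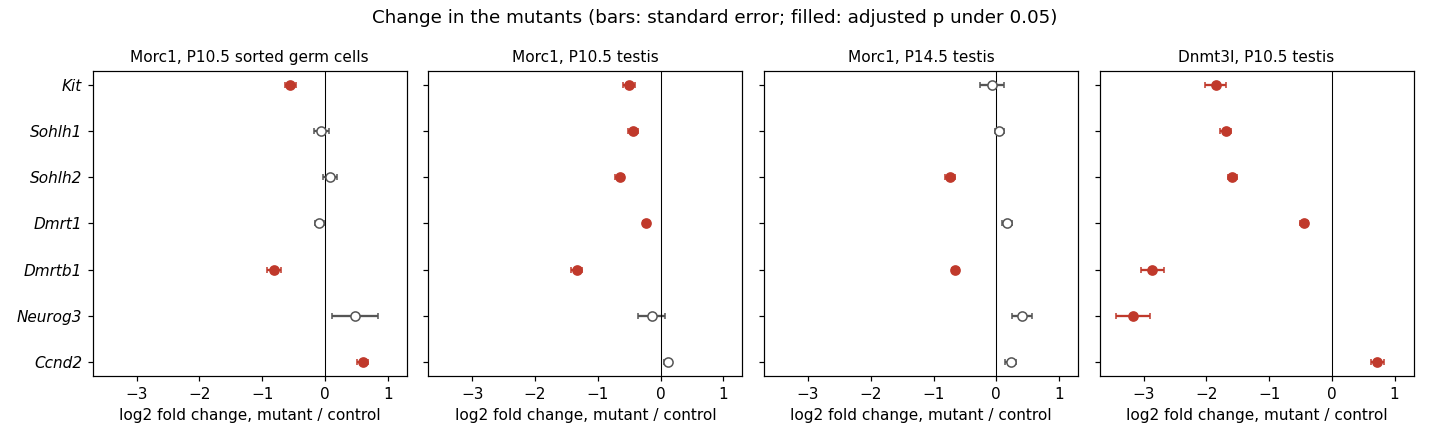
Log2 fold change of mutant over control (x axis) for the 7 genes (rows) in 4 comparisons (panels), with bars for the standard error and filled red points for adjusted p under 0.05. Dmrtb1 lies left of 0 and is called in all 4 panels, from -0.65 in P14.5 testis to -2.86 in DNMT3L KO testis, while Neurog3 is called in the DNMT3L panel alone.

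Cell type markers shifted in DNMT3L KO testis as well. All 14 early meiotic genes and all 12 germ cell markers were called lower, with summed germ cell markers at 520 to 672 RPKM in controls and 188 to 234 in KO. Of 11 Sertoli markers 8 were called higher and none lower (2851 to 3891 against 4480 to 4919 RPKM), and all 4 tested mast cell markers, a cell type that also makes KIT, were called higher (1.05 to 3.89 against 2.88 to 10.0 RPKM). Summed Leydig cell markers, far above the mast cell sums, were 241 to 375 RPKM in controls and 375 to 382 in KO. Of 15 markers of undifferentiated spermatogonia 4 were called higher and 5 lower. The median log2 fold change was -1.69 over the members, -1.44 over the germ cell markers and -0.00 over all genes, and the part of the shifts in the members' values was not tested.

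Of 13 wider differentiation genes 9 were called lower and 3 higher in DNMT3L KO. Stra8 had -2.49 ± 0.186 (adjusted p = 9.78e-07), from a mean of 52.6 RPKM in controls to 9.03, and Sox3, a transcription factor of spermatogonia, -2.40 ± 0.128 (adjusted p = 1.29e-07). Kitl was higher by 0.52 ± 0.0808 (adjusted p = 0.000218). Of 34 KIT signalling genes 12 were called higher and 8 lower, where 24.9% and 29% of all genes tested were. Among them Gab2 had 0.52 ± 0.103 (adjusted p = 0.00112) and Mtor -0.73 ± 0.0868 (adjusted p = 2.88e-05). Of 14 cyclin D partners 8 were called lower and 5 higher, with Cdkn2a at -1.77 ± 0.109 (adjusted p = 2.58e-07) and Cdkn2c at 0.62 ± 0.13 (adjusted p = 0.00168).

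**Figure D4:**
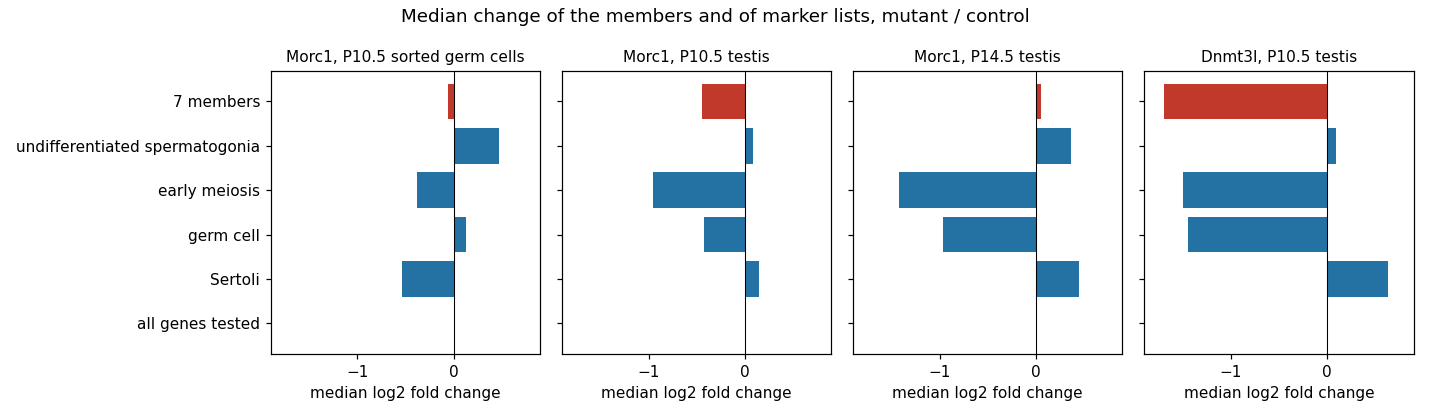
Median log2 fold change of mutant over control (x axis) of the 7 members (red), of 4 lists of cell markers (blue) and of all genes tested (grey, near 0) in 4 comparisons (panels). In P10.5 Morc1 tg/tg testis the medians of the members (-0.44) and of the germ cell markers (-0.42) lie side by side, and in DNMT3L KO they are -1.69 and -1.44.

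In testes labelled Miwi2 KO, 0 of 7 members were called by edgeR, with 1.23% of all genes called, and 0 by DESeq2. Unadjusted p was under 0.05 for 3 members, and the share of all genes at that unadjusted p is not given here. With replicate numbers fitted as a block, Sohlh1, Dmrt1 and Ccnd2 were called. That fit also called far more of all genes than the 1.23% above, as given in the closing section. The median log2 fold change was 0.14 over the members and 0.01 over all genes tested. For all 7 members both KO libraries lay above both het libraries. How many of all genes did the same was not counted, so this adds no support for a rise. Of 12 germ cell markers 2 were called higher and none lower, with summed levels of 627 to 633 RPKM against 575 to 576, and of 11 Sertoli markers none was called, with 2388 to 2457 against 2068 to 2243. Their part in the members' values was not tested. Neurog3 measured 3.65 and 4.25 RPKM against 3.02 and 3.47, with an interval from -0.00 to 0.53. Dmrt1 measured 111 and 106 RPKM against 95.2 and 89.2, with an interval from 0.07 to 0.36. Piwil4 RNA was higher in the libraries labelled Miwi2 KO (0.69 ± 0.0742, adjusted p = 0.000746), the opposite of what a loss of this RNA would give.

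Sorted germ cells and whole testis were last compared at P10.5 in controls. The preparation kit and RNA type differed with the tissue, so these cannot be told apart. Relative to all genes, Dmrtb1 (2.00 ± 0.129, adjusted p = 9.7e-10), Kit (1.04 ± 0.0981, adjusted p = 9.23e-08), Dmrt1 (1.00 ± 0.0716, adjusted p = 3.53e-09) and Sohlh2 (0.52 ± 0.105, adjusted p = 0.000328) were higher in sorted cells. Ccnd2 (-0.46 ± 0.073, adjusted p = 3.61e-05) and Sohlh1 (-0.47 ± 0.118, adjusted p = 0.00207) were lower, so that 6 of 7 members were called, where 77.7% of all genes were called. Without testis tg/+ replicate 3 Sohlh1 was at -0.35 (adjusted p = 0.0778). The direction for Sohlh2 depended on the measure, as its RPKM was lower in sorted cells (12.8 to 13.2) than in testis (14.1 to 15.0). Mean RPKM of Dmrtb1, Kit and Dmrt1 was higher in sorted cells, and that of Ccnd2 and Sohlh1 lower, as in the test. Kitl, at -4.60 on the log2 scale, was lower in sorted cells, as were all 11 Sertoli markers.

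Across the 20 sorted libraries, which share stages and genotypes, the members resembled each other in part. Pearson's r of log2(RPKM + 1) was 0.827 between Sohlh2 and Ccnd2, 0.824 between Dmrt1 and Dmrtb1 and 0.81 between Sohlh2 and Dmrt1. Sohlh1 had a negative r with 5 of the other members, down to -0.518 with Dmrt1. Among 12870 genes those close to Dmrt1 included Parp12 (0.976) and Trp53 (0.970), the closest to Ccnd2 were Egr1 (0.984), Nr5a2 (0.984) and Arhgef17 (0.984), and the closest to Dmrtb1 were Bcl9l (0.965), Hist1h2ba (0.958) and Syvn1 (0.956). Sohlh2 was closest to Cxxc5 (0.973), Zfp933 (0.965) and Cd2bp2 (0.962), and Sohlh1 to Thg1l (0.901), Cgrrf1 (0.901) and Muc3 (0.888). Kit had weaker neighbours in 4930579C15Rik (0.838), Gm12356 (0.813) and Dzip1l (0.813), as had Neurog3 in Bbs2 (0.846), Fgl1 (0.836) and Igsf9b (0.8288).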

How the data were processed

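RNA-seq libraries were made from 1 mouse each, with a polyA kit for whole testis and an rRNA-depletion kit for sorted germ cells. Per the study's methods and the labels, the authors trimmed reads, removed rRNA reads, mapped the rest uniquely to mm9 with Bowtie and counted reads per gene with HTSeq. The deposited tables give raw read counts and RPKM for 26385 genes. Small RNA libraries were not used here.

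Counts were tested with edgeR 4.0.16 (R 4.3.3; TMM, filterByExpr, quasi-likelihood test) over all genes, with Benjamini-Hochberg adjustment and a threshold of 0.05. RPKM served for levels only. The members and gene lists were chosen with earlier results of these data known. DESeq2 1.42.0, no filter, replicate blocks, other control sets and leaving out each library were the alternatives. In simulated counts for Morc1 in P10.5 testis (15055 genes), 97% of genes changed by 1 on the log2 scale were recovered, for E16.5 germ cells (16200 genes) 60%, and for P10.5 against P2.5 control germ cells (16263 genes) 41%. Of 38 replicate pairs, none agreed within sampling noise. Named from other lists were the called genes with the largest changes, and Stra8 and Kitl always. Some genes that this rule or the likeness measure names are not reported here. Motifs were chosen with the sequences in view. Promoters came from RefSeq GRCm38.p6, while the deposited tables use mm9.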

Additional observations from a re-analysis of the deposited data

Results flagged for a closer look

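The effect of Morc1 loss differed between P10.5 and P14.5 testis, by an interaction term, for Sohlh1 (0.48), Dmrt1 (0.39) and Dmrtb1 (0.67). The effect of DNMT3L KO differed from that of Morc1 tg/tg in P10.5 testis for Kit (-1.31), Sohlh1 (-1.21), Sohlh2 (-0.89), Dmrtb1 (-1.47), Neurog3 (-2.98) and Ccnd2 (0.66). Mutation and mouse line cannot be told apart there. In germ cells the Morc1 effect differed between E16.5 and P10.5, where stage, sort and strain background change together, for Kit (-1.11) and Ccnd2 (0.83). All are differences of log2 fold changes, and values without single libraries stand beside them above.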

How the results depend on the processing

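Of 123 tests of single members, 52 were called, and 40 of these calls were lost under no alternative. The counts of members called were 1 in E16.5 germ cells without the filter and with the replicate block (Kit), 1 at E18.5 by DESeq2 and without the filter (Kit), 1 at P2.5 without the filter and with the replicate block (Sohlh1), 3 in testes labelled Miwi2 KO with the replicate block (Sohlh1, Dmrt1, Ccnd2), and 2 for E18.5 against E16.5 and 2 for P2.5 against E18.5 when only those stages were fitted, which lost Sohlh1 (adjusted p = 0.0614) and Dmrtb1 (adjusted p = 0.135) at the first step and Dmrt1 (adjusted p = 0.0973) at the second, where that fit gave no value for Neurog3. It called Sohlh2 (-0.35, adjusted p = 0.0478) at the third. Calls were also lost for Neurog3 from E18.5 to P2.5 with the block (-7.12, adjusted p = 0.0937) and for Sohlh1 from P2.5 to P10.5 without the filter (-0.46, adjusted p = 0.0669) and with the block (-0.43, adjusted p = 0.161). Leaving out 1 library gave 0 to 1 members at E16.5, 0 to 2 at E18.5, 0 to 1 at P2.5, 2 to 4 at P14.5, 1 to 4 for the interaction of Morc1 with testis age and 0 to 2 for that with germ cell stage.

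Values that were not called changed sign for Dmrtb1 at E18.5 (0.29 with the replicate block), Ccnd2 at P2.5 (0.01 by DESeq2) and Kit from P10.5 to P14.5 (-0.08 with the replicate block). With 1 library left out, log2 fold changes in Morc1 germ cells crossed 0 for Sohlh1 (-0.35 to 0.24), Sohlh2 (-0.55 to 0.07) and Dmrtb1 (-0.79 to 0.13) at E16.5, Dmrt1 (-0.67 to 0.31) and Dmrtb1 (-0.74 to 1.40) at E18.5 and Ccnd2 (-0.22 to 0.18) at P2.5. In Morc1 testis they did so for Neurog3 at P10.5 (-0.41 to 0.02) and Kit at P14.5 (-0.25 to 0.12), and between Morc1 het and WT for Sohlh1 (-0.14 to 0.01), Dmrt1 (-0.02 to 0.03), Dmrtb1 (-0.03 to 0.01), Neurog3 (-0.46 to 0.37) and Ccnd2 (-0.12 to 0.07). Between DNMT3L het and WT they did so for Kit (-0.04 to 0.25) and Dmrtb1 (-0.03 to 0.28). Across stages they did so for Sohlh2 (-4.67 to 0.44) and Neurog3 (-3.44 to 7.55) from E16.5 to E18.5, Kit (-0.18 to 0.67), Dmrtb1 (-1.26 to 0.88) and Neurog3 (-8.73 to 0.00, the 1 called value among these) from E18.5 to P2.5, Kit from P10.5 to P14.5 testis (-0.09 to 0.21) and Neurog3 between sorted cells and testis (-0.24 to 0.07). Among interactions they did so for Sohlh2 with testis age (-0.16 to 0.01) and for Sohlh1 (-0.30 to 0.29) and Neurog3 (-2.69 to 4.20) with germ cell stage. The causes were not tested.

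Over all genes, calls went from 70 to 180 without the filter and 174 with the block at E16.5, from 6 to 271 by DESeq2, 83 without the filter and 46 with the block at E18.5, and from 7 to 21, 27 and 30 under the same 3 settings at P2.5. They went from 2326 to 1200 with the block in P10.5 Morc1 testis, from 197 to 364 by DESeq2 and 4503 with the block for Miwi2, from 2 to 5 by DESeq2 and 119 without the filter between Morc1 het and WT, and from 1 to 2 by DESeq2 and 0 with the block between DNMT3L het and WT. With only the stages compared they went from 3151 to 1220 and from 6600 to 3557, and the Morc1 interaction with germ cell stage went from 290 to 507 without the filter. With 1 library left out the calls over all genes were 74 to 171 at E16.5, 0 to 190 at E18.5, 0 to 70 at P2.5, 922 to 2352 in P10.5 and 3517 to 5001 (against 5323) in P14.5 Morc1 testis, 340 to 952 for Miwi2, 2 to 441 between Morc1 het and WT, 0 to 1 between DNMT3L het and WT and 1731 to 4795 from E16.5 to E18.5. Among interactions they were 772 to 1746 (against 1287) with testis age, 1753 to 4021 (against 2797) between DNMT3L and Morc1 loss and 130 to 312 with germ cell stage.

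In no comparison of Morc1 or DNMT3L mutants with 3 or more same-numbered pairs did every pair's deviations correlate above 0.1 (0.01 to 0.06 in P10.5 germ cells, -0.11 to 0.35 in P14.5 testis, -0.22 to -0.05 in P10.5 Morc1 testis, -0.43 to -0.02 in DNMT3L testis), so the numbers were not taken as pairs. Of Miwi2 there were only 2 pairs, both at 0.32, and whether these numbers pair the samples was not settled; with the block Sohlh1 (adjusted p = 0.0173), Dmrt1 (adjusted p = 6.56e-05) and Ccnd2 (adjusted p = 0.00212) were called there. With the replicate block Dmrt1 was -0.23 (adjusted p = 0.0593) in P10.5 and 0.17 (adjusted p = 0.0411) in P14.5 Morc1 testis. The block could not be fitted for Morc1 het against WT. Neurog3 had 0 to 27 reads per group in the sorted libraries before P10.5, which limits the precision of its values there.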
